A study of Mus musculus with 8 samples.

Results

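The genes described here are Enpp2, which encodes autotaxin, the receptor genes Lpar1, Lpar2, Lpar3, Lpar4 and Lpar6, and the lipid phosphate phosphatase genes Plpp1, Plpp2 and Plpp3. They are 9 of the 31053 genes in the deposited tables, matched by gene symbol. They were chosen from the comparison of Bbs8-/- with Bbs8+/+ described below, after its results were known, so their differences are given as a description without a test. All 9 passed the filter on low counts (at least 1 CPM, a count scaled to the library total, in 4 or more libraries), Lpar2 and Lpar3 on 10 or fewer counts in each library.

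The assay was QuantSeq, a 3′ mRNA sequencing method that reads 1 fragment near the 3′ end of each polyadenylated transcript. The tissue was the eyecup of C57/Bl6 mice at postnatal day 11, left after cornea, lens, retina and optic nerve had been taken off, so that retinal pigment epithelium (RPE) was homogenized together with choroid and sclera. The 4 control libraries came from Bbs8+/+ (wild type) littermates and the 4 mutant libraries from Bbs8-/- (Bbs8 knockout) mice, with no treatment in either group. The knockout was not restricted to the RPE, so photoreceptors, choroid and all other cells carried it as well. The comparison asks what loss of Bbs8, a subunit gene of the ciliary BBSome complex, does to gene expression in the RPE layer before photoreceptor outer segments mature.

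Lysophosphatidic acid (LPA) is a small signalling lipid. Autotaxin, a secreted lysophospholipase D of the ENPP family, makes it outside the cell from lysophosphatidylcholine, and is found in ocular fluids such as the aqueous humour. LPA acts on G protein-coupled receptors of separate families, the EDG family (Lpar1, Lpar2, Lpar3) and a P2Y-related family (Lpar4, Lpar5, Lpar6), which signal through Gi, Gq, G12/13 and Gs to small GTPases, phospholipase C and adenylyl cyclase. Lipid phosphate phosphatases on the cell surface end the signal by removing the phosphate from LPA, and act on sphingosine 1-phosphate too.

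Libraries held 2159295 to 2884983 gene counts in Bbs8+/+ and 1636725 to 2179761 in Bbs8-/-, and 3 counts corresponded to 1.04 to 1.83 CPM. Ttc8, the annotation's symbol for Bbs8 (chr12:98920574-98983238, mm10), stood at 14.67, 19.69, 18.24 and 21.68 CPM in Bbs8+/+ replicates 1 to 4 and at 9.72, 3.66, 2.30 and 4.21 CPM in Bbs8-/- replicates 1 to 4. The groups did not overlap, and Bbs8-/- replicate 1 kept the highest level among the knockouts. Where the deleted part of the gene lies relative to these 3′ reads was not given in the sources used here. All 10 RPE markers were detected, with a summed level of 17410 to 19030 CPM. The study counted each animal as a replicate, yet every library held reads of both Xist and the 4 Y-linked genes examined. Xist stood at 641.5 to 747.4 CPM in Bbs8+/+ and 570.9 to 625.7 CPM in Bbs8-/-. The Y-linked sum was 59.1 to 65.0 CPM in Bbs8+/+ and 108.3 to 119.7 CPM in Bbs8-/-. Pooling of animals was not tested, so the 4 libraries of a group may not stand for 4 animals. The errors and the tests below rest on the spread between libraries, which may be technical. The proportions of the sexes and the genotype cannot be told apart.

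Enpp2 (ENSMUSG00000022425, minus strand, chr15:54838901-54952892, mm10) was the most abundant of the 9 genes in Bbs8+/+. Its level was 576.5, 610, 560.4 and 661.2 CPM in Bbs8+/+ replicates 1 to 4, and 390.6, 384.4, 384.9 and 370.4 CPM in Bbs8-/- replicates 1 to 4. All 4 knockout libraries lay below all 4 controls, as in 3.76% of all tested genes. The knockout libraries lay closer together, with an SD of 8.58 CPM against 44.5 CPM (n = 4 each). The Bbs8-/- mean was 0.6355 of the Bbs8+/+ mean, a log2 fold change of -0.66 (SE 0.06). Between 643 and 1891 reads per library stood behind these values. In the annotation, 345 exon bases of Enpp2, away from its 3′ end, lie opposite Gm26684 on the other strand. Leaving out any 1 library gave log2 fold changes from -0.69 to -0.61, and without Bbs8-/- replicate 1, the library with the most remaining Ttc8, the value was -0.66.

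Among all 13813 genes tested with the edgeR quasi-likelihood test, 1.14% were called lower and 1.1% higher in Bbs8-/- at a false discovery rate (FDR) of 0.05. Enpp2 was the 1 member of the 9 called, in the lower direction. Since the same contrast chose the members, nothing is read from that count. Enpp2 stood at percentile 5.1 of all log2 fold changes, and at rank 151 of the tested genes by mean level. In eyecup RNA, fewer cells of a type that express a gene and less RNA per cell cannot be told apart.

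**Figure D1:**
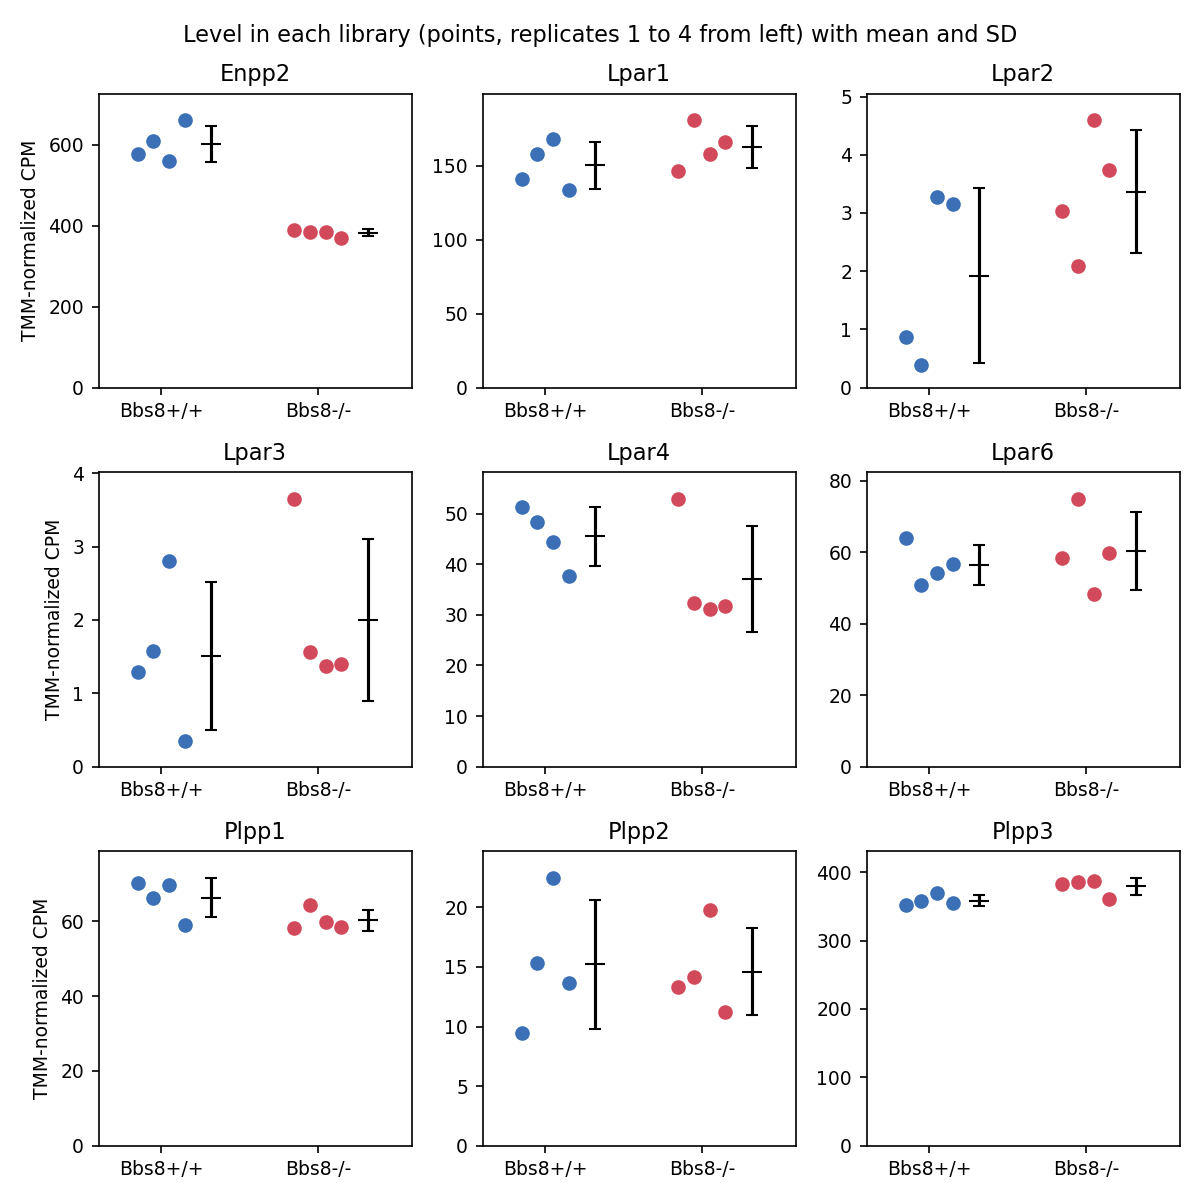
TMM-normalized CPM (vertical axes, each from 0) of the 9 genes in the 4 Bbs8+/+ and 4 Bbs8-/- libraries. Points are libraries, and the bar beside them is the mean with its SD. Enpp2 has separate groups, 560.4 to 661.2 CPM against 370.4 to 390.6 CPM, while the groups of the other 8 genes overlap. Of all tested genes, 3.76% had every Bbs8-/- library below every Bbs8+/+ library and 3.62% had every one above.

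Each of the 5 receptor genes overlapped between the genotypes. Lpar1 (ENSMUSG00000038668, minus strand, chr4:58435255-58553898), the most widely expressed LPA receptor gene and one that couples to Gi, Gq and G12/13, was the most abundant of them. It stood at 141.1, 157.9, 168.4 and 133.9 CPM in Bbs8+/+ and at 146.4, 180.9, 158 and 166 CPM in Bbs8-/-. The groups overlapped, with means of 150.3 ± 15.7 CPM and 162.8 ± 14.5 CPM (n = 4 each, ± SD) and a log2 fold change of 0.12 (SE 0.09), which ran from 0.067 without Bbs8+/+ replicate 4 to 0.18 without Bbs8+/+ replicate 3.

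Lpar4 (ENSMUSG00000049929, plus strand, chrX:106920625-106933900), a P2Y-related receptor that can also raise cyclic AMP through Gs, was the receptor gene with the most divided libraries. It measured 51.35, 48.44, 44.44 and 37.76 CPM in Bbs8+/+ against 52.85, 32.42, 31.23 and 31.80 CPM in Bbs8-/-. Thus 3 knockout libraries lay below every control and Bbs8-/- replicate 1 lay above every control. The log2 fold change was -0.31 (SE 0.16) with all libraries and -0.51 without Bbs8-/- replicate 1. Lpar6 (ENSMUSG00000033446, plus strand, chr14:73237895-73243294), the P2Y-related receptor known from inherited hair loss, measured 63.87, 50.8, 54.26 and 56.64 CPM in Bbs8+/+ and 58.31, 74.78, 48.23 and 59.87 CPM in Bbs8-/-. The knockout values spanned the control values on both sides, and the log2 fold change was 0.09 (SE 0.14), or -0.02 without Bbs8-/- replicate 2. Lpar6 lies within Rb1 on the opposite strand, with 408 bases of shared exon that do not hold the 3′ end of Lpar6. Rb1 itself measured 26.5 ± 3.79 CPM and 22.1 ± 3.88 CPM (n = 4 each, ± SD), and whether the counting used strand was not given in the sources used here.

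Lpar2 and Lpar3, the other EDG-family receptors, were at the limit of detection. Lpar2 (ENSMUSG00000031861, plus strand, chr8:69822429-69831102) had 2, 1, 7 and 9 counts in Bbs8+/+ and 5, 4, 10 and 8 counts in Bbs8-/-. Lpar3 (ENSMUSG00000036832, plus strand, chr3:146220963-146286186) had 3, 4, 6 and 1 counts in Bbs8+/+ and 6, 3, 3 and 3 counts in Bbs8-/-. Lpar2 reached 1 CPM in 2 control and 4 knockout libraries, and Lpar3 in 3 control and 4 knockout libraries. Neither gene would have passed the filter on its control libraries alone. The log2 fold changes of Lpar2 and Lpar3 were 0.80 (SE 0.64) and 0.40 (SE 0.77), with wide errors at this depth. The value of Lpar2 ran from 0.47 without Bbs8+/+ replicate 2 to 1.19 without Bbs8+/+ replicate 4. The value of Lpar3 turned on single libraries, being -0.003 without Bbs8-/- replicate 1, 0.049 without Bbs8+/+ replicate 4 and 0.85 without Bbs8+/+ replicate 3. Lpar5, the remaining LPA receptor of the P2Y-related family, had 0 counts in all 8 libraries.

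**Figure D2:**
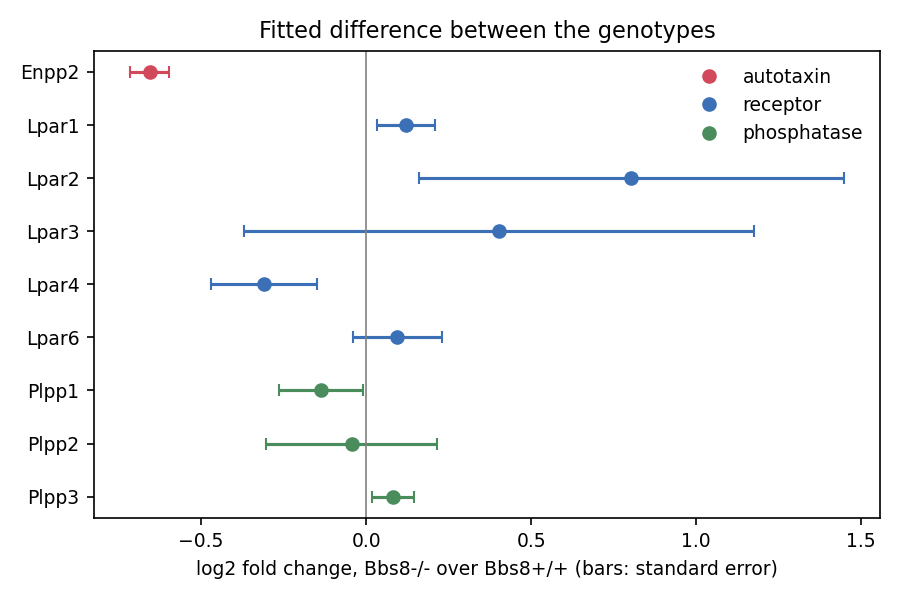
Log2 fold change of Bbs8-/- over Bbs8+/+ (horizontal axis) for the 9 genes, coloured by role, with its standard error from the edgeR fit over 4 libraries a group. Enpp2 lies at -0.66 with the smallest error (0.06), and Lpar2 and Lpar3 have the widest (0.64 and 0.77).

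The phosphatase genes showed values on both sides of 0. Plpp3 (ENSMUSG00000028517, plus strand, chr4:105157347-105232764), a cell surface phosphatase needed for vascular development, was the most abundant of them, at 351.7, 357.6, 369.6 and 354.9 CPM in Bbs8+/+ and 382.7, 385.4, 387.2 and 361.5 CPM in Bbs8-/-. In 3 of 4 knockout libraries Plpp3 lay above every control, and Bbs8-/- replicate 4 lay within the control range. The difference was small, with a log2 fold change of 0.08 (SE 0.06). Plpp1 (ENSMUSG00000021759, plus strand, chr13:112800792-112867894), a broadly expressed member of the same family, measured 70.34, 66.16, 69.7 and 59.09 CPM in Bbs8+/+ and 58.31, 64.32, 59.71 and 58.46 CPM in Bbs8-/-, with a log2 fold change of -0.14 (SE 0.13). In the annotation, 452 exon bases of Plpp1, its 3′ end included, lie opposite Mtrex on the other strand, and Mtrex stood at 72.4 ± 10.3 CPM and 72.3 ± 3.03 CPM (n = 4 each, ± SD). With the strand setting unknown, reads of this pair could not be separated further. Plpp2 (ENSMUSG00000052151, minus strand, chr10:79526430-79533796) measured 9.49, 15.36, 22.45 and 13.64 CPM in Bbs8+/+ and 13.36, 14.12, 19.75 and 11.22 CPM in Bbs8-/-. Its log2 fold change was -0.04 (SE 0.26), and it took values from -0.23 to 0.19 as single libraries were left out.

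Because QuantSeq gives about 1 fragment per transcript, CPM was not divided by gene length for the order of levels. In Bbs8+/+ the order was Enpp2, Plpp3, Lpar1, Plpp1, Lpar6, Lpar4, Plpp2, Lpar2 and Lpar3. Neighbours whose control libraries overlapped were Plpp1 with Lpar6, Lpar6 with Lpar4, and Lpar2 with Lpar3. In Bbs8-/- the order was the same but for Lpar6, which stood above Plpp1 and overlapped it. There Enpp2 (370.4 to 390.6 CPM) and Plpp3 (361.5 to 387.2 CPM) overlapped at the top of the order. Enpp2 was thus 1.21 to 1.55 times the sum of Plpp1, Plpp2 and Plpp3 in the Bbs8+/+ libraries, and 0.8248 to 0.8596 times that sum in the Bbs8-/- libraries. Against the sum of the 6 receptor genes Lpar1 to Lpar6, the ratio was 2.05 to 2.85 in Bbs8+/+ and 1.32 to 1.58 in Bbs8-/-. Both ratios separated the genotypes, and both held the Enpp2 values already given.

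The make-up of the receptor and phosphatase transcripts overlapped between the genotypes for every gene. Of the counts of Lpar1 to Lpar6, Lpar1 took 58.7% ± 3.24 in Bbs8+/+ and 61.4% ± 4.15 in Bbs8-/- (n = 4 each, ± SD). Lpar6 took 22.1% ± 2.8 and 22.6% ± 2.4, and Lpar4 took 17.8% ± 1.8 and 14.0% ± 4.06. Lpar2 and Lpar3 each stayed under 2% in every library. The receptor genes together summed to 255.7 ± 17.3 CPM in Bbs8+/+ and 265.6 ± 19.9 CPM in Bbs8-/-. Of the phosphatase counts, Plpp3 took 81.5% ± 1.21 and 83.5% ± 0.601, Plpp1 took 15.1% ± 1.01 and 13.3% ± 0.534, and Plpp2 took the rest. Their sum was 440 ± 15.2 CPM and 454 ± 16.1 CPM. Both sums overlapped between the genotypes.

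**Figure D3:**
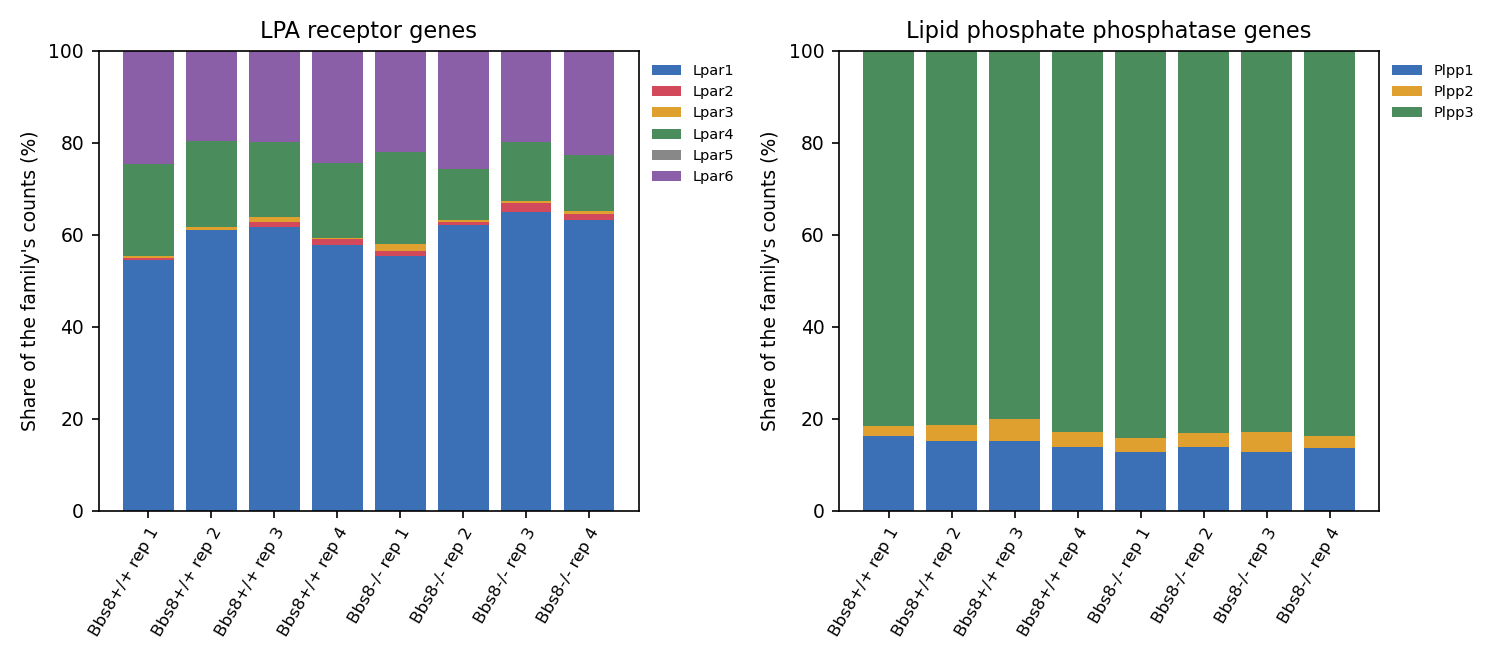
Share of the summed counts of Lpar1 to Lpar6 (left) and of Plpp1 to Plpp3 (right), in percent, in each of the 8 libraries (rep is the replicate). Lpar1 makes up 54.6% to 64.9% of the receptor counts and Plpp3 80.0% to 84.2% of the phosphatase counts in every library, and Bbs8-/- replicate 1 has the largest Lpar4 share, 20%.

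The rest of the pathway was read from 7 lists holding 83 genes that are not among the 9, of which 72 were tested. Across them, 0 genes passed FDR 0.05 as higher and 2 as lower in Bbs8-/- (edgeR quasi-likelihood test), beside the 1.1% and 1.14% of all tested genes given above. The median log2 fold change of the 72 genes was 0.002, with 36 values above 0 and 36 below, against a median of -0.0041 over all tested genes. In 7 of the 72 genes the genotypes did not overlap, where 3.76% of all tested genes had every Bbs8-/- library below every Bbs8+/+ library and 3.62% had every one above.

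Genes for other routes to LPA, such as secreted and intracellular phospholipases A, numbered 13 with 11 tested. None was called, and 8 of 11 values lay above 0 with a median of 0.11. The most abundant were Ddhd2 and Ddhd1, intracellular phospholipases that act on phosphatidic acid. Ddhd2 measured 67.5 ± 6.51 CPM in Bbs8+/+ and 78.0 ± 16.0 CPM in Bbs8-/- (n = 4 each, ± SD), a log2 fold change of 0.22 (SE 0.12, edgeR FDR 0.463). Ddhd1 had a log2 fold change of 0.20 (SE 0.13, edgeR FDR 0.53). Liph and Lipi, whose products release LPA from phosphatidic acid outside the cell, and Pla1a, a secreted phospholipase A1 that acts on phosphatidylserine, were at or near the limit of detection: Pla1a had 11 counts over the Bbs8+/+ libraries and 8 over the Bbs8-/- libraries, Liph 3 and 1, and Lipi 0 in all.

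The 16 genes for reacylation of LPA and for other phosphatases had 13 tested and 0 called members, with a median log2 fold change of 0.02. Agpat3, an acyltransferase that turns LPA into phosphatidic acid, led by level at 143.1 ± 8.16 CPM and 147.4 ± 4.43 CPM (n = 4 each, ± SD), with a log2 fold change of 0.04. Agpat5 followed with a log2 fold change of -0.20 (SE 0.17, edgeR FDR 0.695). Of further LPA receptor genes, Lpar5 and P2ry10 were not tested, since Lpar5 had 0 counts and P2ry10 had too few.

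Both called genes belonged to the 19 genes of G proteins and their effectors, all of which were tested, with a median log2 fold change of -0.03. Gnas, which encodes the alpha subunit of Gs, fell from 1887 ± 105.7 CPM to 1603 ± 100 CPM (n = 4 each, ± SD), a log2 fold change of -0.24 (SE 0.05, edgeR FDR 9.62e-05). Gnai2, which encodes an alpha subunit of Gi, fell from 466.1 ± 31.2 CPM to 392.5 ± 17.4 CPM, a log2 fold change of -0.25 (SE 0.06, edgeR FDR 0.00951). The call of Gnai2 was lost without Bbs8+/+ replicate 4 (edgeR FDR 0.0581) and without Bbs8-/- replicate 1 (edgeR FDR 0.0707). Many other receptors use these G proteins. The genes for G12/13 signalling, the branch that leads to the actin cytoskeleton, gave values on both sides of 0, and neither Gna12 (-0.38, SE 0.33) nor Gna13 (0.17, SE 0.15) was called.

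The 14 genes that respond through SRF and YAP, a readout often used for LPA, had 14 tested and 0 called members, with a median log2 fold change of -0.002. Acta2, smooth muscle actin, measured 254.2 ± 8.27 CPM in Bbs8+/+ and 272.5 ± 8.3 CPM in Bbs8-/- (n = 4 each, ± SD). Its groups did not overlap, yet its log2 fold change of 0.10 (SE 0.07) gave an edgeR FDR of 0.592. Ccn2, a secreted YAP target, measured 234.5 ± 41.4 CPM and 203.8 ± 46.0 CPM, with a log2 fold change of -0.20 (SE 0.09, edgeR FDR 0.297). It was -0.051 without Bbs8-/- replicate 2 and -0.30 without Bbs8+/+ replicate 4.

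Genes of the neighbouring lipid mediator sphingosine 1-phosphate, which shares the Plpp phosphatases, numbered 12 with 10 tested and 0 called, and their median log2 fold change was 0.11. Sgpl1, the lyase that breaks sphingosine 1-phosphate down, had a log2 fold change of 0.03 (SE 0.14, edgeR FDR 0.965), and the receptor gene S1pr2 one of -0.14 (SE 0.16, edgeR FDR 0.807), or -0.013 without Bbs8+/+ replicate 4 and -0.24 without Bbs8+/+ replicate 2. Of the 6 other ENPP family genes, 5 were tested and 0 were called, with a median of -0.14. Enpp5 measured 65.1 ± 5.46 CPM in Bbs8+/+ and 75.1 ± 1.45 CPM in Bbs8-/- (n = 4 each, ± SD; log2 fold change 0.20, edgeR FDR 0.496), without overlap of the groups. Enpp1, which makes pyrophosphate from ATP, measured 50.4 ± 5.01 CPM and 39.4 ± 7.37 CPM (log2 fold change -0.36, edgeR FDR 0.26).

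**Figure D4:**
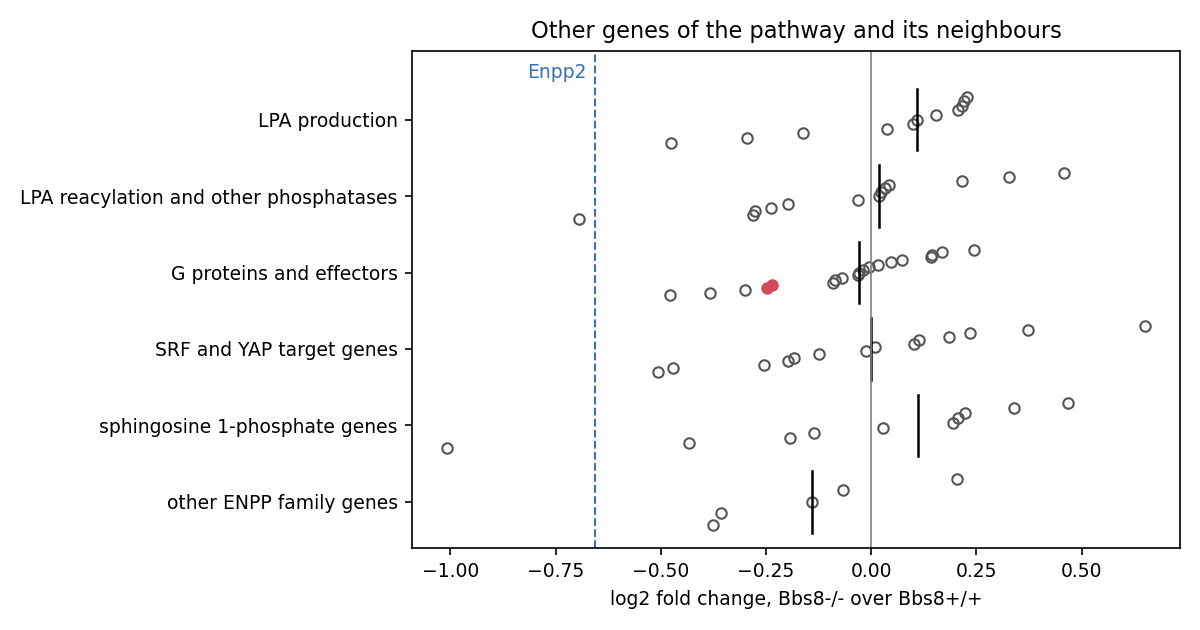
Log2 fold change of Bbs8-/- over Bbs8+/+ (horizontal axis) for the 72 tested genes of the lists, 1 point a gene, offset vertically within a list only for legibility. Filled points are the 2 called genes, Gnas and Gnai2, black bars are list medians, and the dashed line is Enpp2 at -0.66.

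The genes whose levels were most like that of Enpp2 were sought by Pearson correlation of log2(CPM + 1) over the 8 libraries, among 9041 tested genes with a mean of at least 10 CPM. The libraries of a group share their genotype, so these values hold the difference between the groups and carry no test. The highest were Col1a2 (r = 0.985) and Col3a1 (0.982), fibrillar collagens of fibroblasts and sclera, followed by Rgs5 (0.979), known from pericytes, Tyrp1 (0.978), a melanosome enzyme, and Serpinh1 (0.978), a collagen chaperone. Col1a2, Col3a1 and Tyrp1 are also in the marker lists below. The most negative were Crygd (-0.99), a lens crystallin, Otx2 (-0.986), an RPE and photoreceptor transcription factor, Ddx3y (-0.986), which is Y-linked, Rdx (-0.985), a relative of ezrin, and Trf (-0.978), transferrin. After the genotype means were subtracted, r was 0.816 for Rgs5, 0.803 for Tyrp1, 0.577 for Col1a2, 0.53 for Serpinh1 and 0.514 for Col3a1. The central 95% of all 9041 genes then ran from -0.783 to 0.775. Among the other members, r over the 8 libraries was highest for Plpp1 (0.51) and Lpar4 (0.50) and lowest for Plpp3 (-0.755). The remaining members with a mean of at least 10 CPM were Plpp2 (0.012), Lpar6 (-0.242) and Lpar1 (-0.531). After the genotype means were subtracted, r was -0.778 for Plpp1, -0.578 for Lpar1, -0.147 for Lpar4, -0.106 for Plpp2, -0.095 for Lpar6 and -0.046 for Plpp3, so the signs of Plpp1, Lpar4 and Plpp2 turned.

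Marker genes of the cell types an eyecup can hold differed between the genotypes as well, and are given beside Enpp2 as summed CPM. All 10 pigment cell and choroid melanocyte markers were detected, 7 were called lower, and their sum was 14290 to 14950 CPM in Bbs8+/+ and 11850 to 12380 CPM in Bbs8-/-. The RPE is pigmented too, so this list does not separate choroid melanocytes from RPE. Fibroblast and sclera markers summed to 35030 to 36820 CPM and 27600 to 28830 CPM, with 3 of 10 called lower (Col1a1, Col1a2, Col3a1) and 1 higher (Thy1). Without Col1a2 and Col1a1, its most abundant genes, the other 8 markers summed to 8821 to 9261 CPM and 8942 to 9343 CPM and overlapped. That sum was mostly Dcn, a proteoglycan of connective tissue, which averaged 5894 CPM in controls and 6261 CPM in knockouts. All 4 knockout values of Dcn lay above every control, and it was not called (edgeR FDR 0.174). Postn averaged 234.9 CPM and 199.3 CPM with all 4 knockout values below every control, and was not called either (edgeR FDR 0.0842). Of the 10 fibroblast and sclera markers, 4 had log2 fold changes above 0 and 6 below, with a median of -0.19. The 10 RPE markers had 0 calls, a median log2 fold change of 0.09, and sums of 17410 to 18470 CPM and 18660 to 19030 CPM. The RPE sum was mostly Ttr, at means of 10960 CPM and 11680 CPM, and without Ttr and Rgr the other 8 markers overlapped (4887 to 5098 CPM against 4843 to 5120 CPM). Rpe65 averaged 2002 CPM and 1827 CPM, and Lrat 346.4 CPM and 322.7 CPM, in each case with 3 of 4 Bbs8-/- libraries below every control. The other 8 RPE markers had log2 fold changes above 0. Among them Ttr (edgeR FDR 0.0689), Stra6, a retinol transporter gene (228.7 CPM and 268.4 CPM, edgeR FDR 0.0635), and Rlbp1, a retinaldehyde-binding protein gene (779.5 CPM and 844.8 CPM, edgeR FDR 0.299), had all 4 Bbs8-/- libraries above every control. The pigment cell sum without Dct and Pmel still separated the genotypes, at 1953 to 2111 CPM against 1493 to 1601 CPM.

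Endothelium markers overlapped, at 1039 to 1096 CPM and 1028 to 1135 CPM, with 1 of 10 called higher (Egfl7). Flt1 (174 CPM and 146.6 CPM) and Tie1 (62.76 CPM and 50.05 CPM) had all 4 Bbs8-/- libraries below every control and were not called. Of the 10 endothelium log2 fold changes, 5 lay above 0 and 5 below. Sums were lower in every Bbs8-/- library for myelinating glia (529.9 to 604.9 CPM against 421.4 to 508.5 CPM) and photoreceptors (429.4 to 476.2 CPM against 302.1 to 370.2 CPM). They were higher in every Bbs8-/- library for lens (193.4 to 232.2 CPM against 476.2 to 510.9 CPM) and macrophages (461.8 to 497.7 CPM against 528.7 to 594.9 CPM), while skeletal muscle overlapped (1772 to 1948 CPM against 1934 to 2158 CPM). Of the 10 lens markers 6 were called higher, and without Cryab and Crygb, the most abundant, the other 8 summed to 33.91 to 45.74 CPM in Bbs8+/+ and 223.7 to 255.2 CPM in Bbs8-/-. No marker in these lists was at 0 in all libraries.

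Divided by the RPE marker sum, Enpp2 was 0.03034 to 0.03797 in Bbs8+/+ and 0.01985 to 0.02082 in Bbs8-/-, a log2 ratio of the group means of -0.72. Divided by the endothelium sum, the log2 ratio was -0.67. It was -0.39 relative to the pigment cell sum and -0.30 relative to the fibroblast sum, and in these 4 divisions the groups did not overlap. With the 2 most abundant genes left out of each sum, the log2 ratio was -0.66 relative to RPE and -0.70 relative to endothelium. It was -0.26 relative to pigment cells and -0.66 relative to fibroblasts. The fibroblast value thus turned on whether Col1a1 and Col1a2 were counted, and the sum without them was mostly Dcn. Relative to the myelinating glia sum, from cells of which oligodendrocytes are a known source of autotaxin, Enpp2 was 0.9756 to 1.118 in Bbs8+/+ and 0.757 to 0.879 in Bbs8-/-, a log2 ratio of -0.36. That sum was mostly Pmp22 and Sox10. Relative to the other 8 glia markers Enpp2 was 2.278 to 2.552 in Bbs8+/+ and 2.361 to 2.623 in Bbs8-/-, with overlap and a log2 ratio of 0.02. These 8 summed to 240.8 to 259.1 CPM and 141.2 to 163.1 CPM. Relative to the photoreceptor sum the log2 ratio was -0.27, and the groups overlapped (1.177 to 1.452 against 1.04 to 1.226). It was -0.39 without the 2 most abundant of that list. Which cells of the eyecup carried Enpp2 was not measured, and the part of cell composition in its difference was not tested.

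**Figure D5:**
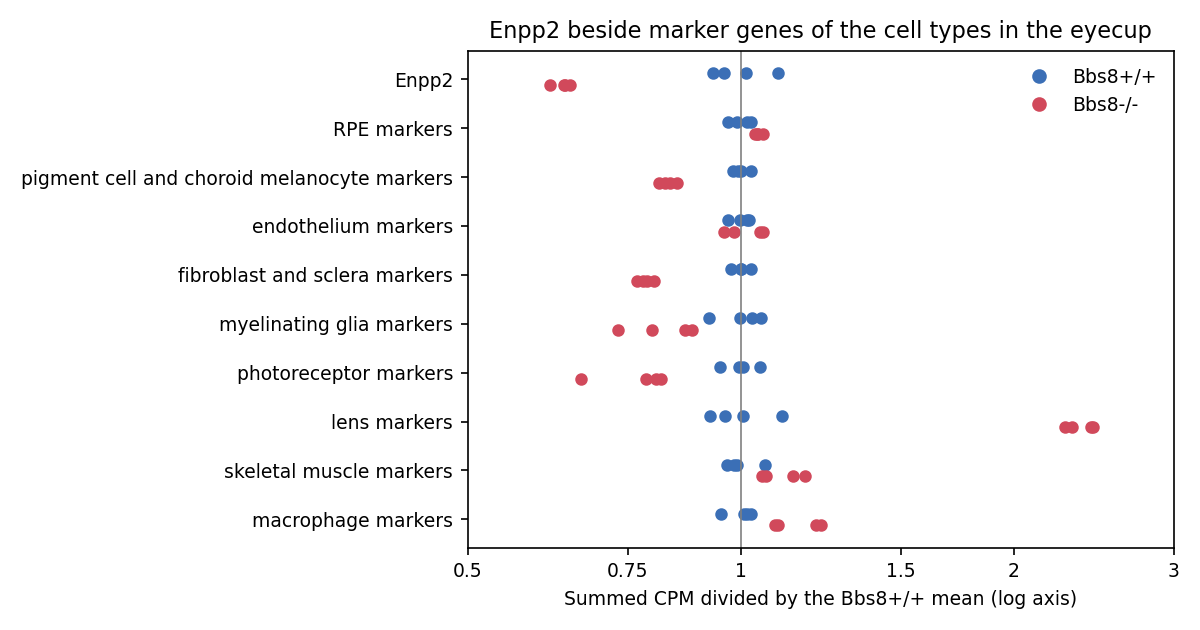
Enpp2 and the sums of 9 marker lists in each library, divided by the Bbs8+/+ mean (horizontal log axis), 1 point a library. The Bbs8-/- points of Enpp2 lie further left than those of any whole marker sum. All Bbs8-/- points of the pigment cell, fibroblast, myelinating glia and photoreceptor sums lie left of 1, and those of the lens sum lie furthest right.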

How the data were processed

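RNA of 8 eyecup libraries was compared, 4 Bbs8+/+ and 4 Bbs8-/-, grouped by the genotype in the labels. Each deposited file gave raw counts per gene from reads with a unique alignment. To make them, the authors trimmed reads with BBDuk, aligned them with STAR to mm10 and counted them with htseq-count on an Ensembl gene model. Use of strand in the counting was not given in the sources used here, and the study's filter on multi-mapped reads was not applied. Summary lines of the counter were left out. Reads outside genes made up 42.15% to 43.41% in Bbs8+/+ and 44.14% to 44.39% in Bbs8-/-, and ambiguous reads 0.3094% to 0.3228%. No molecular identifiers were named, so limits of detection cover counting error only. Symbols and positions came from GENCODE M21, which held 31011 of the 31053 identifiers.

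Genes reaching 1 CPM in 4 or more libraries were fitted in edgeR 4.0.16 (limma 3.58.1, R 4.3.3) by its two-sided quasi-likelihood F test, with TMM normalization, genotype alone as factor, and Benjamini-Hochberg adjustment over all 13813 genes (FDR 0.05). CPM values are TMM-normalized. Standard errors of log2 fold changes were taken as the absolute change over the root of F. Levels are means ± SD. The procedure was tested on simulated data. Alternatives were other normalizations and filters, DESeq2 1.42.0, a replicate block, FDR 0.01, each library left out, and, chosen after seeing the data, Enpp2 relative to marker sums, whole or without the 2 most abundant genes.

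The 9 genes and all lists were chosen with earlier results of these data known. Genes named beside the 9 were Ttc8, the called genes of each pathway list and its 2 most abundant tested genes, and the 5 genes at either end of the correlation with Enpp2. Genes named in addition (Rb1, Mtrex, Gna12, Gna13, Pla1a, Liph, Lipi, S1pr5, Egr1, Srf, Lpar5, P2ry10, Xist, and marker genes) were chosen outside that rule, after their values were seen. Some list genes are not reported here by name.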

Additional observations from a re-analysis of the deposited data

Results flagged for a closer look

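In 3 of 44 groups of 4 libraries examined, 1 library stood apart from the other 3, its gap to them exceeding Dixon's 95% limit for 4 values. Chance flags about 1 in 20 groups, here 2.2. Lpar4 in Bbs8-/- replicate 1 was at 52.85 CPM against 31.23 to 32.42 CPM in the other knockout libraries, and its log2 fold change was -0.31 with and -0.51 without it. Lpar3 in the same library was at 3.645 CPM against 1.378 to 1.569 CPM, on 6 counts against 3 in each of the others, and its log2 fold change was 0.40 with and -0.003 without it. Bbs8-/- replicate 1 also had the lowest total of gene counts and the most remaining Ttc8 among the knockouts, 9.72 CPM, and their part in these values was not tested. Ddhd2 in Bbs8+/+ replicate 1 was at 77.25 CPM against 63.8 to 65.02 CPM in the other controls, and its log2 fold change was 0.22 with and 0.29 without it, and 0.095 without Bbs8-/- replicate 4.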

How the results depend on the processing

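Enpp2 kept its direction under every alternative run but 1. Its log2 fold change, -0.66 as reported, was -0.69 to -0.61 with single libraries left out, -0.39 relative to the pigment cell marker sum, -0.30 relative to fibroblast, -0.36 relative to myelinating glia and -0.27 relative to photoreceptor markers. With the 2 most abundant genes of each marker list left out, it was -0.26 relative to pigment cells, -0.66 relative to fibroblasts, -0.39 relative to photoreceptors and 0.023, the turned sign, relative to myelinating glia, where the groups overlapped. Replicate numbers were shared between the genotypes, and whether they pair libraries by litter or preparation was not given in the sources used here. Deviations of same-numbered libraries from their group means correlated at -0.029 to 0.019 over 9041 genes. Such values cannot exclude pairing, since technical spread between libraries could give them too. With the number as a replicate block, Enpp2 was at -0.65, 134 genes were called higher and 129 lower, and no call changed among the 9 genes, Ttc8 and the named pathway genes.

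Signs turned for Lpar3 (-0.003 without Bbs8-/- replicate 1, range -0.003 to 0.85), Lpar6 (-0.024 without Bbs8-/- replicate 2, up to 0.19), Plpp2 (0.19 without Bbs8+/+ replicate 3 and 0.071 without Bbs8-/- replicate 4, range -0.23 to 0.19) and Sgpl1 (-0.023 without Bbs8+/+ replicate 1 and -0.004 without Bbs8-/- replicate 4, up to 0.078). The cause was not tested. With single libraries left out, uncalled Agpat3 ran from 0.021 to 0.078 and Agpat5 from -0.33 to -0.11. Genes called higher, 152 as reported, numbered 92 at FDR 0.01 and 114 to 172 with single libraries left out. Genes called lower, 157 as reported, numbered 104 with DESeq2, 81 at FDR 0.01 and 105 to 150 with single libraries left out. Pathway genes called lower, 2 as reported, numbered 1 to 2 with single libraries left out. Of the 5 genes most like Enpp2, 2 were among the 50 highest by Spearman correlation and 0 after genotype means were subtracted. At 3 counts for 1.04 to 1.83 CPM, depth limits Lpar2 and Lpar3.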

Other observations

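S1pr5, a sphingosine 1-phosphate receptor gene known from oligodendrocytes and natural killer cells, had 0 counts in all 4 Bbs8+/+ libraries and 2, 3, 2 and 3 counts in Bbs8-/- replicates 1 to 4. It did not pass the filter on low counts and was not tested, no library held more than 3 counts, and the gene was picked after its values were seen.

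Egr1, an immediate early gene that SRF drives, was also picked after its values were seen. It measured 33.1 ± 4.18 CPM in Bbs8+/+ and 42.8 ± 5.08 CPM in Bbs8-/- (n = 4 each, ± SD). The groups did not overlap, but the log2 fold change of 0.37 (SE 0.16) gave an edgeR FDR of 0.28. Srf itself measured 32.8 ± 2.11 CPM and 23.7 ± 2.55 CPM, the opposite direction, again without overlap (log2 fold change -0.47, SE 0.19, edgeR FDR 0.217).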
